A study of Drosophila melanogaster with 3 samples.

Results

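The 4 genes described here, kuz, kul, Meltrin and Tace, encode ADAM proteins of Drosophila melanogaster, and they were set against all 13945 protein-coding genes on 6 chromosomes. They were matched by symbol in the Ensembl annotation, where kul is spelled Kul. They were chosen by their peak signal and rank in these same Jarid2-GFP peak lists, so their promoter values are a description and were not tested. Jarid2 binding had been mapped by ChIP-seq in 1 group of 3 biological replicates of whole embryos, 0 to 24 h old and of both sexes. The embryos came from a transgenic line that stably expressed Jarid2 with GFP at its C terminus, and chromatin sonicated to 200 to 800 bp was pulled down with an antibody against GFP. No sample without the GFP fusion was analysed here, and whole embryos mix all cell types and stages, so fewer cells with binding and less binding per cell cannot be told apart.

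ADAM proteins are membrane-anchored metalloproteases that cut the outer parts of other membrane proteins, a step called ectodomain shedding. In the fly, kuz encodes Kuzbanian, the ADAM that cuts the receptor Notch after ligand binding and so opens the way for the intramembrane cut by gamma-secretase. The kul gene encodes the Kuzbanian-like protease, which cuts the Notch ligand Delta. Tace encodes the fly counterpart of the mammalian enzyme that releases tumour necrosis factor, and Meltrin is named after the mammalian meltrins. Jarid2 is a cofactor of Polycomb repressive complex 2, which methylates histone H3 and keeps developmental genes silent.

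The kuz and Meltrin starts carried some of the strongest Jarid2-GFP peaks of the list, kul carried a peak close to the lower limit of the list, and Tace carried none. In the reproducible list, which holds the 5464 strongest peaks of the pooled replicates, the kuz summit ranked 9 and the Meltrin summit ranked 20 by the authors' signal value. The kul summit ranked 5248. A promoter summit, here one within 1000 bp of any annotated start, was thus present at 3 of the 4 ADAM genes, against 25.5% of protein-coding genes. One of the 20 strongest peaks, a limit equal to the rank of Meltrin itself, lay at 2 of the 4, against 0.165% of protein-coding genes. These shares follow from how the genes and this limit were chosen, and nothing is read from them.

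The sequences shown next come from the ADAM promoters: stretches of 30 bases at or beside the summits, then the bases upstream of each start up to the next annotated exon, at most 200. All come from the RefSeq Release 6 assembly, which shares dm6 coordinates, and each is written 5′ to 3′ on the strand of the gene named first. The first set shows the densest runs of GTGTG or GAGAG within 300 bp windows centred on the summits, with capitals marking that motif on either strand. The kuz run lies 110 to 139 bp downstream of the start, at chr2L:13550249-13550278 on the plus strand, and holds 7 overlapping matches to GTGTG. The stretch at the neighbouring gene B4, at chr2L:13549186-13549215 and on the plus strand, holds 4 matches. The Meltrin run lies 65 to 94 bp downstream of its start, at chr3R:14697198-14697227 on the minus strand, and also holds 4. The GAGAG run beside the weaker kuz summit, at chr2L:13550489-13550518 on the plus strand, holds 5 matches.
kuz strongest summit GTGTG run: tGTGTGcgtgcgttcGTGTGTGTGTGTGTG
kuz and B4 upstream summit GTGTG run: CACACACattcgcacctacaccCACACACg
Meltrin strongest summit GTGTG run: cGTGTGTGcttgtgcatttctgaGTGTGTG
kuz second summit GAGAG run: aacGAGAGtGAGAGAGAGaaatgtaGAGAG

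The second set gives the 30 bases centred on the summits of kuz (chr2L:13550182-13550211, plus strand), Meltrin (chr3R:14697210-14697239, minus strand) and kul (chr3R:29725783-29725812, plus strand). It is followed by the upstream bases of kuz (chr2L:13549939-13550138, plus strand), Meltrin (chr3R:14697293-14697492, minus strand), kul (chr3R:29725691-29725829, plus strand) and Tace (chr3R:30000404-30000529, plus strand). Capitals here mark any of 9 short motifs on either strand, with overlaps allowed. They are the GAGA motif GAGAG, the Pho core GCCAT, the motif GAAAA, the dinucleotide repeat GTGTG, the motif GGGCG, the DREF motif TATCGATA, the TATA box motif TATAAA, the Initiator motif TCAGT and the E-box CACCTG.
kuz summit: ctttgtaacggatctcggaacgccgtggga
Meltrin summit: ctTTTTCgcgttcGTGTGTGcttgtgcatt
kul summit: accgcgaggtgtatTTTTCtgagcctgaca
kuz upstream: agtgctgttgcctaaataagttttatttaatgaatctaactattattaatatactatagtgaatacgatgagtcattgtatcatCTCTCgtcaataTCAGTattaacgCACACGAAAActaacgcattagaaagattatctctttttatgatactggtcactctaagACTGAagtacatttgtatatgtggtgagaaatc
Meltrin upstream: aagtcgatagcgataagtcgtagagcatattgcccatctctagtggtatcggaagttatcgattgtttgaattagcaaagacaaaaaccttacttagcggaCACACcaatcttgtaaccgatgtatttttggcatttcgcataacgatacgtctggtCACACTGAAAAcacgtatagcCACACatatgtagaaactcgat
kul upstream: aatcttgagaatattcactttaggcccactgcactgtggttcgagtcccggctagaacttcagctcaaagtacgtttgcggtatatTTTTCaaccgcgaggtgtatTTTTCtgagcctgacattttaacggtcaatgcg
Tace upstream: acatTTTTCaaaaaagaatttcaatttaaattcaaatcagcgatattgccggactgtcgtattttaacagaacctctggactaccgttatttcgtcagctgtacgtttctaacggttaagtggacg

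Kuzbanian is encoded on chromosome 2L (FBgn0259984, 13550139 to 13639411, plus strand, dm6), in a gene of 89.3 kb that is longer than 99.2% of protein-coding genes and has 5 transcripts with 1 common start. Its strongest summit had a signal of 2736 and lay 58 bp downstream of the start, in the 5′ UTR. In replicate 1 the summit had a signal of 800 and rank 8 of 30000 peaks. In replicate 2 it had a signal of 1198 and rank 10, and in replicate 3 a signal of 725 and rank 13. The 3 replicates thus placed it among their 13 strongest peaks, with a mean rank of 10.3 ± 2.52 (SD, n = 3). Signals are given on the caller's own scale for each list, so only ranks were set side by side between lists. The summit position varied little, with an SD of 2.08 bp over the replicates, smaller than at 96.2% of the 5261 reproducible peaks that all replicates held. The median SD was 18.6 bp over those peaks and 6.35 bp among the 100 strongest.

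**Figure D1:**
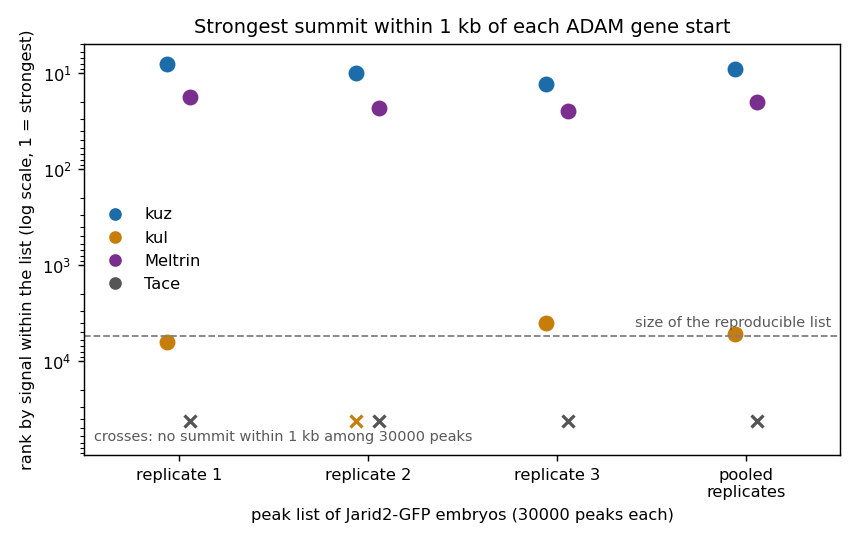
Rank of the strongest summit within 1 kb of each ADAM gene start (vertical log axis, 1 is the strongest) in the 3 replicate lists and the pooled list of 30000 peaks each, with 1 point per list; crosses mark a list with no such summit. The kuz ranks lie between 8 and 13 and the Meltrin ranks between 18 and 25 in the replicates, kul lies near the dashed line at 5464 peaks and has no summit in replicate 2, and Tace has none in any list.

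The kuz start region held 3 reproducible promoter summits, a number reached by 1.58% of protein-coding genes and by 1 of the 4 ADAM genes. The second of them lay 897 bp upstream of the kuz start, at position 13549242, with a signal of 1336 and rank 199. It was nearer to B4, the divergent neighbour which is separated from kuz by 810 bp, and lay 86 bp downstream of the B4 start, in the 5′ UTR of that gene. Its ranks were 229, 270 and 140 in replicates 1, 2 and 3. Its signal was 46.1%, 43.4% and 59.6% of that of the kuz summit in the same replicates, a mean of 49.7% ± 8.71 (SD, n = 3), so it was the weaker of the pair in all 3. Because both starts lie within 1000 bp of the strong summit, the peak that ranks 9 counts for kuz and for B4 alike.

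The third summit lay 269 bp downstream of the kuz start, in the 5′ UTR at position 13550408, with a signal of 414 and rank 1787. It ranked 1475, 1209 and 4406 in replicates 1, 2 and 3. Its signal was 17.3%, 19.9% and 8.52% of the strongest kuz summit there, a mean of 15.2% ± 5.97 (SD, n = 3). It lay within 300 bp of that stronger summit and so may be counted with it. Replicate 3 was the lowest of the 3 at this site and the highest at the B4 site.

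Beyond its start region kuz had no reproducible summit inside the gene. Among the 734 protein-coding genes of 20 kb or more with a reproducible promoter summit, 52.5% also had none farther than 1 kb from their starts, and the most held 15. Among the 76 such genes between 70 and 110 kb long, a range chosen after the values were seen, 25 (32.9%) had none and the median was 1. The remaining reproducible summit in the kuz window, the gene plus 10 kb on either side, lay 91.0 kb downstream of the start in an exon of ics, 118 bp from an ics start. It had a signal of 227 and rank 3790, and reached 8.23% ± 0.407 of the kuz summit (SD, n = 3). Weaker summits in kuz introns were present in the permissive lists, the strongest of them 63777 bp downstream of the start, at rank 7385 in the pooled list, 7715 in replicate 1 and 7281 in replicate 3, with no match in replicate 2. In the pooled list of 30000 peaks the window held 13 further summits, of which 3 were matched within 200 bp in all replicates.

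**Figure D2:**
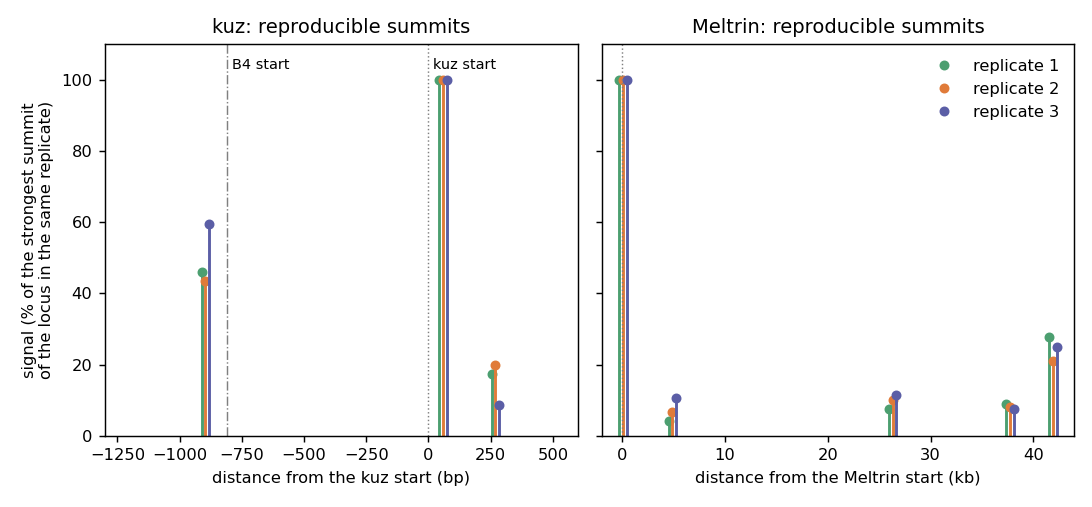
Signal of each reproducible summit as a percentage of the strongest summit of the locus in the same replicate, against distance from the gene start, for kuz (left, in bp, the ics summit lies outside the panel) and Meltrin (right, in kb); points of the 3 replicates are set slightly apart for visibility. The B4-side summit of kuz reaches 43.4% to 59.6%, and the highest of the other Meltrin summits reaches 20.9% to 27.8%.

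Meltrin lies on chromosome 3R (FBgn0265140, 14664907 to 14697292, minus strand, dm6) and spans 32.4 kb, with 2 transcripts and 1 start. Its strongest summit had a signal of 2411 and lay 67 bp downstream of the start, in the 5′ UTR at position 14697225. It had a signal of 710 and rank 18 in replicate 1, a signal of 1041 and rank 23 in replicate 2, and a signal of 649 and rank 25 in replicate 3. The mean rank was 22.0 ± 3.61 (SD, n = 3), and no Meltrin rank reached the range of the kuz ranks. The position had an SD of 14.5 bp, smaller than at 59.7% of the reproducible peaks held by all replicates. It was larger than the median of 6.35 bp among the 100 strongest peaks, to which this summit belongs. The promoter peaks as a whole had a median signal of 340, and the kuz and Meltrin summits stood at 8.05 and 7.09 times that level in the reproducible list.

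Meltrin had 2 reproducible summits farther than 1 kb from its start inside the gene, where kuz had 0, and both lay in introns at low ranks. One lay 26.3 kb downstream of the start, with a signal of 248 and rank 3409, and ranked 5245, 3682 and 3529 in replicates 1, 2 and 3. The other lay 4.89 kb downstream, with a signal of 177 and rank 5128, and ranked 12661, 6267 and 3875. The replicates thus held the farther site among their 5464 strongest peaks in all 3 cases, and the nearer one in replicate 3.

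Past the 3′ end of Meltrin, the window held a summit in the first part of Hexim, which encodes an inhibitor of the elongation factor P-TEFb. It lay 137 bp downstream of the Hexim start, with a signal of 202 and rank 4376. A stronger one, with a signal of 589 and rank 1104, lay 169 bp upstream of a start of l(3)L1231. That summit reached 27.8%, 20.9% and 24.8% of the Meltrin summit in replicates 1, 2 and 3, a mean of 24.5% ± 3.48 (SD, n = 3). The start of Meltrin is separated by 396 bp from kibra, which encodes a regulator of the Hippo pathway and reads in the same direction. In the pooled list 20 further summits fell in the window, of which 2 were matched in all replicates.

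The kul gene lies on chromosome 3R (FBgn0039688, 29725830 to 29735360, plus strand, dm6) and spans 9.53 kb, with 3 transcripts and 1 start. Its summit lay 32 bp upstream of the start, between kul and CG18731, with a signal of 174, 0.512 times the median of promoter peaks. The lowest signal in the reproducible list was 168, and the −log10 q-value of the kul peak was 2.17, against a list maximum of 3.89 that 70.8% of the peaks share. In replicate 1 the strongest summit near the start had a signal of 46.5 and rank 6225 and lay 118 bp upstream. In replicate 3 it had a signal of 67.4 and rank 3951 and lay 2 bp downstream. Replicate 2 had none within 1000 bp, and its nearest summit lay 2363 bp upstream at rank 6528. The kul promoter peak was therefore held by 2 of the 3 replicates, and only in replicate 3 was it among the 5464 strongest.

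The other reproducible summits of the kul window lay at neighbouring genes. One stood 8698 bp upstream of the kul start and 236 bp upstream of Obp99b, an odorant-binding protein gene, with a signal of 477 and rank 1494. Its ranks of 1678, 1641 and 1385 in replicates 1, 2 and 3 were close together. Another lay 12.3 kb downstream of the kul start and 165 bp upstream of Gnpnat, which encodes a glucosamine-phosphate acetyltransferase, with a signal of 191 and rank 4694. It ranked 10524, 4026 and 5386 in replicates 1, 2 and 3, lower than the kul summit in replicates 1 and 3. A site at 29736960, 5 bp upstream of a CIA30 start, was not in the reproducible list. The replicate summits nearest to it ranked 3472 in replicate 1, 13940 in replicate 2 and 378 in replicate 3, so replicate 2 placed it lowest. Replicate 1 had a further summit at rank 914 in the kul window, 7 bp downstream of the CG7601 start.

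Tace lies on chromosome 3R (FBgn0039734, 30000530 to 30003678, plus strand, dm6) and spans 3.15 kb, with 2 transcripts and 1 start. No summit lay within 1000 bp of its start in the reproducible list, in the pooled list of 30000 peaks or in any replicate list. The nearest summits lay 1598 bp upstream at rank 19124 in replicate 1, 2693 bp upstream at rank 16425 in replicate 2 and 7428 bp upstream at rank 14667 in replicate 3. These are 3 different places, all far down their lists. The nearest reproducible summit lay 14.6 kb from the start, and 30.6% of protein-coding genes had theirs farther away, with a median distance of 6940 bp. The Tace window of 23.1 kb held 5, 10 and 3 summits in replicates 1, 2 and 3, with best ranks of 9899, 5578 and 6560. None of these was among the 5464 strongest of its list, so binding at Tace was not detected in these lists, and read depth was not part of them.

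**Figure D3:**
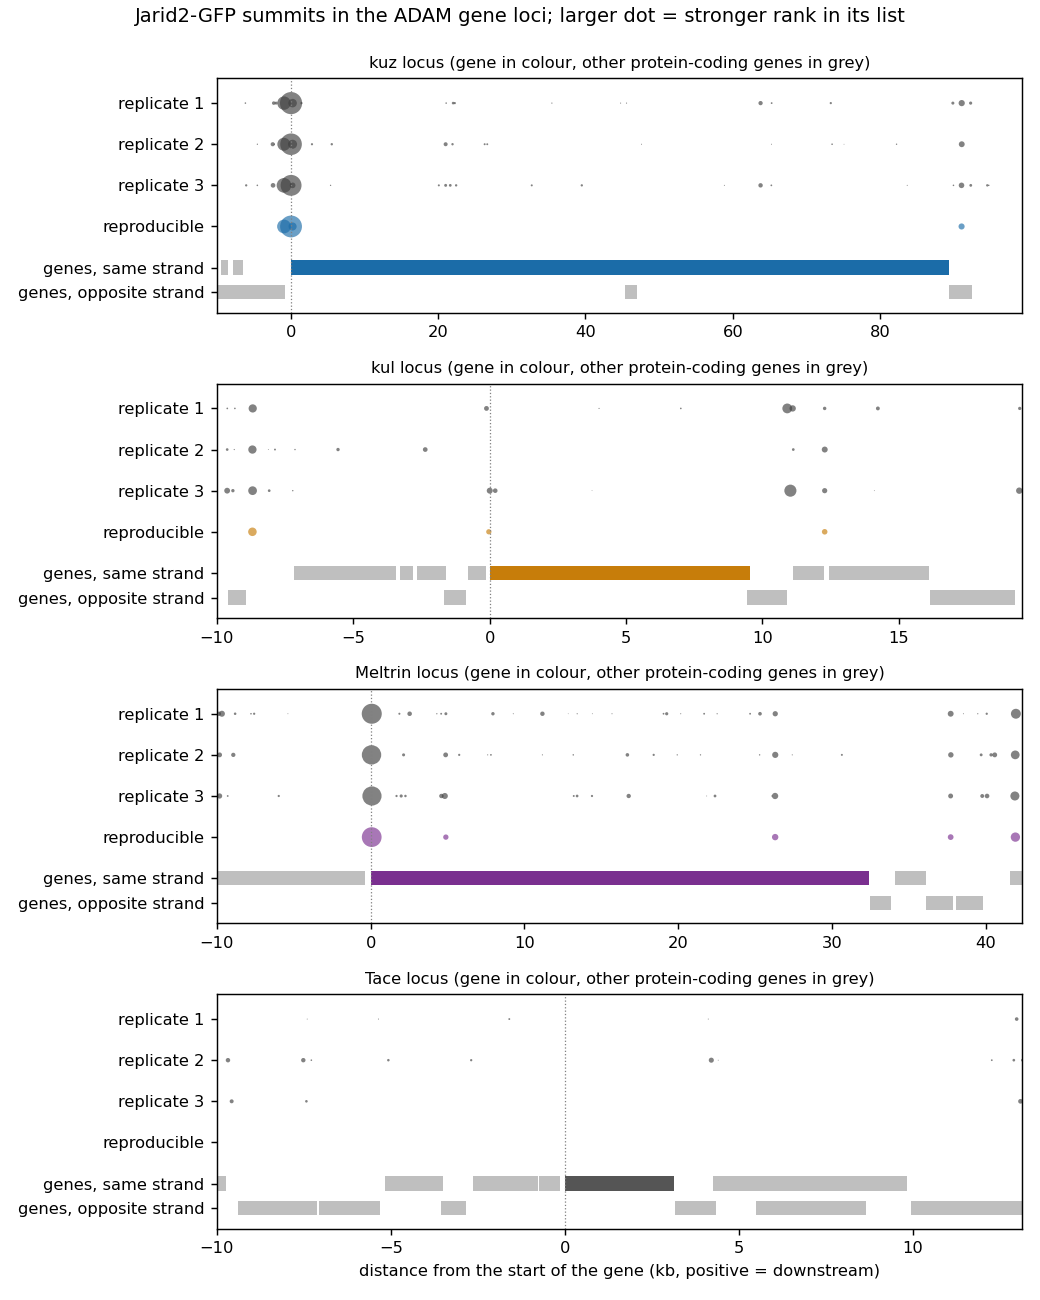
Summits in the window of each ADAM gene (the gene plus 10 kb on either side) against distance from the gene start in kb, for replicates 1 to 3 (30000 peaks each) and the reproducible list; a larger dot is a stronger peak by rank, bars show protein-coding genes on the same or the opposite strand. The kuz and Meltrin starts have large dots in every row, kul has a small reproducible dot that is missing in replicate 2, and the Tace window has no reproducible dot.

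Set side by side, the 4 windows held 12 reproducible summits, of which 4 were in the kuz window of 109 kb, 5 in the Meltrin window of 52.4 kb, 3 in the kul window of 29.5 kb and 0 in the Tace window. Taken over the 5464 strongest peaks of each replicate, a promoter summit was present in all replicates at 2 of the 4 genes, kuz and Meltrin, against 20.1% of protein-coding genes. Over all 30000 peaks of each replicate the count was again 2 of 4, against 36.8%. When each summit was given only to the gene of its nearest start, 3 of the 4 genes had one, against 20.5% of protein-coding genes. At the lower limit of the list, the weakest summit inside it and the strongest outside it had signals of 227 and 132 in the kuz window, 177 and 167 in the Meltrin window, and 174 and 145 in the kul window. The strongest in the Tace window, outside the list, had 137. The replicates are the source of the reproducible list, so their agreement with it is not independent evidence.

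The genes also differed in length. Both members of 20 kb or more, kuz and Meltrin, had a reproducible promoter summit, as did 72.5% of the 1013 protein-coding genes of that length. Of the members under 10 kb, kul had one and Tace did not, against 19.1% of the 11968 genes of that length.

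**Figure D4:**
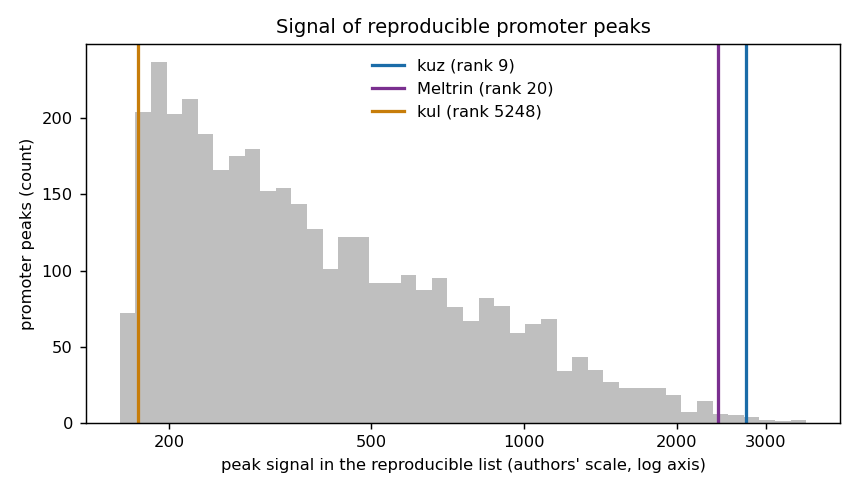
Number of promoter peaks (vertical axis) by signal in the reproducible list (authors' scale, log axis) for all 3786 promoter peaks, with lines at the kuz, Meltrin and kul summits. The kuz (2736) and Meltrin (2411) lines lie in the upper tail, and the kul line (174) lies at the lower end, below the median of 340.

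The summits were also described by position and sequence. The kuz and Meltrin summits lay 58 and 67 bp downstream of their starts, the range of 0 to 100 bp downstream that holds 1949 (51.5%) of the 3786 promoter peaks. Nearly all promoter summits ranked in the first 100 lay in that range too. The position is thus common to peaks of this strength and not particular to kuz and Meltrin. The kul summit lay on the upstream side. In the 300 bp window around its strongest summit kuz had 8 matches to GTGTG, counted on both strands with overlaps, and Meltrin also had 8, whereas kul had 2. In the windows around the starts the counts were 8 for kuz, 9 for Meltrin, 2 for kul and 0 for Tace. In start windows of 200 bp kuz had 1 match, Meltrin 9, kul 2 and Tace 0, so the kuz count rests on bases more than 100 bp from its start. At least 1 GTGTG was present in 59.0% of windows at all promoter summits and 49.0% of windows at all protein-coding starts, and at least 8 in 3.14% and 1.25%. The threshold of 8 was chosen after the counts of the members were seen. Among the 95 promoter summits ranked in the first 100, 5 (5.26%) had at least 8, kuz and Meltrin included.

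GAGAG, the core of the sequence bound by GAGA factor, was found 7 times in the window of the kuz summit 269 bp downstream of the start, a number reached at 3.06% of promoter summits and 1.4% of protein-coding starts. It was absent from the 300 bp windows of the strongest kuz summit and of the Meltrin and kul summits. In windows of 500 bp the strongest kuz summit had 1 match, Meltrin 5 and kul 0, and the 300 bp window of the kuz start had 1. One or more GAGAG was present in 49.3% of windows at all promoter summits. The B4-side window had 6 matches to GTGTG and 6 or more were found at 6.39% of promoter summits. The thresholds of 7 for GAGAG and 6 for GTGTG are the counts of these windows themselves, so these shares are descriptions only. GCCAT, a core of the site of the Polycomb recruiter Pho, was absent from the strongest kuz, Meltrin and kul summit windows. The window of the kuz summit 269 bp downstream of the start had 1 match. GCCAT occurs in 36.7% of all promoter summit windows. The absence of these letters says nothing of the binding of the factors. The start windows had a GC content of 43.0% in kuz, 42.0% in Meltrin, 42.0% in kul and 37.7% in Tace, against a median of 41.7% over protein-coding starts.

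Among genes with promoter summits in all 3 replicates, those whose replicate ranks were most like kuz were B4, which shares the summit, and InR, the insulin receptor gene, with ranks of 12, 9 and 18 in replicates 1, 2 and 3. The sum of absolute log2 rank ratios over the 3 replicates was 1.21 for InR. For Meltrin they were Toll-7, a Toll family receptor gene, with ranks 16, 28 and 31 and a sum of 0.76, and SKIP, with ranks 23, 24 and 32 and a sum of 0.77. The measure is not defined for kul or Tace, which lack a promoter summit in some replicate.

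Related genes, grouped by enzyme class or by their relation to ADAM proteases, were described from lists chosen with earlier results of these data known. Among 14 other metalloproteases 6 (42.9%) had a reproducible promoter summit. The strongest were the matrix metalloprotease genes Mmp2 (rank 626) and Mmp1 (rank 937), followed by AdamTS-A (rank 1111) and sona (rank 1416), and AdamTS-B and Nep1 were among those without. None approached the ranks of kuz and Meltrin. The list of intramembrane proteases held 13 genes, including some gamma-secretase subunits (not Psn) and a rhomboid relative that do not themselves cut. Of the 13, 5 (38.5%) had a reproducible promoter summit. A summit nearest to a start of their own was present at 3 of the 13, against 20.5% of protein-coding genes. The rhomboid protease gene rho ranked 15, between kuz and Meltrin, and rho-4 ranked 3034. The strongest summit counted for aph-1, a gamma-secretase subunit gene (rank 2054), lay nearest to a start of Snx21, and that counted for SppL (rank 3778) lay nearest to a start of Tsp96F. The gamma-secretase genes pen-2 and Psn were without.

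Of 13 substrates and partners of ADAM proteases, 11 (84.6%) had a reproducible promoter summit. A summit nearest to a start of their own was present at 10 of the 13, against 20.5% of protein-coding genes. Delta, a Notch ligand gene, ranked 298, N, the Notch receptor gene, ranked 639, Ser, another Notch ligand gene, ranked 749, and Nrg, a cell adhesion gene, ranked 794. Appl, the amyloid precursor protein-like gene, and Tsp3A, a tetraspanin gene, were without. Delta ranked 250, 364 and 331 in replicates 1, 2 and 3, so it stood below kuz and Meltrin in each. These shares are set beside the 25.5% of all protein-coding genes as descriptions and were not tested.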

How the data were processed

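The peak lists were used as the authors deposited them. Per the deposited notes, every list of 30000 peaks came from 1 replicate or from all pooled, each with a control alignment, and thresholding by IDR (irreproducible discovery rate) gave the reproducible list. The sources used here name neither aligner nor peak caller. The deposited columns used were a signal value per peak, scaled by the caller separately in every list, and a −log10 q-value. Signal was used to rank peaks within a list. The lists hold no read numbers, so depth is unknown. Coordinates are dm6, counted from 1. The lists on the older build dm3 were not used here.

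Starts and exons came from Ensembl release 115, without transposon insertions, and sequence from RefSeq Release 6. Summits within 200 bp were matched. The code was checked on widely spaced simulated peaks shifted by less than that limit, which cannot show how closely spaced summits are matched. In the real lists 1 replicate summit could be matched to more than 1 site. No test was run, since there was 1 group. The 4 genes, the 3 context lists and the measures were chosen with earlier results of these data known. Named genes were the members, from each context list at most 4 genes with the strongest promoter summits and 2 lacking one (alphabetical), the 2 genes most like each member in replicate ranks, and the nearest genes of summits in the windows. Alternatives were other distances, windows, flanks and numbers of peaks, each replicate alone or left out, assignment to the nearest start, overlap of the whole peak and, added after the data were seen, coding transcripts only. Python 3.11.15, numpy 2.4.6, pandas 2.3.3 and matplotlib 3.10.9 were used.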

Additional observations from a re-analysis of the deposited data

How the results depend on the processing

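Of 54 alternative values, 51 lay within 1.5 times the reported value and 3 moved farther. All were counts or ranks, so none could reverse. Ranks in the pooled list had to equal the reported ones, since the reproducible list is its strongest part. Falls from 3 to 2 genes and from 12 to 8 summits lay at the limit of 1.5 times and were counted as within it. The 12 reproducible summits in the 4 windows became 5 with a flank of 0 kb and 6 among the 2732 strongest peaks, both of which leave out summits by construction. They were 9 and 17 with flanks of 5 and 20 kb, and 11 with summits within 300 bp joined. With each replicate left out, 8 to 9 were matched among the 5464 strongest peaks of both other replicates. That is an added requirement, and the reproducible list itself was not made again. The motifs present around the Tace start numbered 4 in a 500 bp window, against 2 in the 300 bp window. A promoter summit was present at 2 of the ADAM genes, in place of 3, among the 2732 strongest peaks and in replicates 1 and 2 alone. The same count was found with each replicate left out, where both other replicates had to hold the summit. The gene lost was kul. The kuz and Meltrin promoter summits were present in each of these. No paired analysis was possible because the series had 1 group. Without read numbers, weak or absent binding at kul and Tace could not be told from limited depth.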
